A study of Mus musculus with 24 samples.

Results

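The genes described are 8 targets of Wnt/β-catenin signaling that mark the hepatocytes around the central vein, and they were taken by symbol from the deposited count table, where each symbol named 1 of 54532 rows. The 8 genes were Glul, Rhbg, Slc1a2, Lgr5, Tbx3, Axin2, Rnf43 and Znrf3. They were followed in liver RNA of 24 males after a 24 h fast, with 6 groups of 4 animals. Whole-body Rab30 knockouts (Rab30KO) were set against wild-type littermates (Rab30 Ctrl). The other 4 groups carried floxed alleles: Rab30 deleted in liver (Rab30L-/-), Cpt2 deleted in liver (Cpt2L-/-), both deleted in liver (DKO), and mice floxed at Rab30 and Cpt2 that were littermates of the DKO (ff;ff). Mice were of the C57BL/6J strain and aged 8 to 10 weeks, and the liver deletions were driven by albumin-Cre to delete the genes in hepatocytes. Rab30 is a small GTPase of the Golgi, and Cpt2 is the mitochondrial carnitine palmitoyltransferase needed to oxidize long-chain fatty acids. The labels gave litter only for Rab30KO with Rab30 Ctrl and for DKO with ff;ff, so litter and genotype cannot be told apart where Rab30L-/- or Cpt2L-/- livers were compared.

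Wnt ligands made by endothelial cells of the central vein stabilize β-catenin in neighboring hepatocytes, and β-catenin with TCF factors then switches on a pericentral set of genes. R-spondins bind the Lgr receptors and strengthen the signal by removing the ubiquitin ligases Rnf43 and Znrf3, which otherwise clear Frizzled receptors from the cell surface. Axin2, Rnf43, Znrf3 and Lgr5 are themselves induced by the signal and feed back on it. In liver the best known outputs are glutamine synthesis by Glul and the transporters that supply it, and the periportal zone at the other end of the lobule holds urea synthesis and gluconeogenesis.

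Library totals lay between 11801027 and 24497738 counts. Counts over the whole gene did not separate every label at the targeted genes, and such a count does not read the deleted exons alone. Cpt2 was 127 ± 30.2 library-scaled counts (CPM) in Cpt2L-/-, 105 ± 10.9 CPM in DKO, 132 ± 5.14 CPM in ff;ff, 186 ± 20.2 CPM in Rab30 Ctrl, 149 ± 41.2 CPM in Rab30KO and 219 ± 40.3 CPM in Rab30L-/- (SD, n = 4). Its log2 fold change against ff;ff was -0.07 in Cpt2L-/- (adjusted p = 0.788), -0.34 in DKO (0.0911) and 0.73 in Rab30L-/- (0.0772), none called by edgeR, whereas the DESeq2 Wald test called Cpt2 in DKO (adjusted p = 0.0392) and Rab30L-/- (0.00147), the latter also with no filter on low counts. Rab30 was 11.2 ± 5.04 CPM in Rab30KO, 14.1 ± 10.8 CPM in Rab30 Ctrl, 17.1 ± 7.35 CPM in Rab30L-/-, 36.5 ± 9.54 CPM in ff;ff, 147 ± 29.97 CPM in Cpt2L-/- and 161 ± 57.8 CPM in DKO (SD, n = 4). Rab30 was lower in Rab30L-/- than in ff;ff by a log2 fold change of -1.10 (SE 0.29), which edgeR did not call (adjusted p = 0.174) and the DESeq2 Wald test did (adjusted p = 0.0155). Group names below are therefore the labels of the libraries, also wherever a direction is given. The 9 hepatocyte markers found, with albumin first, summed to between 51274 and 136138 CPM per library, against 260 to 513 CPM for 10 endothelial markers, and no hepatocyte marker was at 0 in any group. In whole liver, fewer cells of a type and less RNA per cell cannot be told apart.

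Promoter windows from RefSeq (GRCm38.p6, 250 bases before to 50 after a start site) were at hand for 4 of the 8 genes, Glul, Slc1a2, Axin2 and Rnf43. Lgr5, Tbx3, Rhbg and Znrf3 had no window in the table. The windows of Glul, Slc1a2 and Axin2 are shown because these 3 genes had the largest changes among the genes with a window, the first pair lower and Axin2 higher in Cpt2L-/- livers. Capitals mark a match to the TCF core CTTTGAT, read on both strands, where ATCAAAG is its reverse complement. Sequences run 5′ to 3′ on the plus strand, which is the coding strand of all 3 genes.
Glul, chr1:153899679-153899978: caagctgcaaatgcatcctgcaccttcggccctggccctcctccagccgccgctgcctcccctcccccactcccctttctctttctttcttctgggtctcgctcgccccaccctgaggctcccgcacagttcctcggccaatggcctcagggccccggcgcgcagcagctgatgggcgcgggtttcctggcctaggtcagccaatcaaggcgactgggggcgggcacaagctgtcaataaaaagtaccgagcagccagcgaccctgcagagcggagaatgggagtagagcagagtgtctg
Slc1a2, chr2:102706188-102706487: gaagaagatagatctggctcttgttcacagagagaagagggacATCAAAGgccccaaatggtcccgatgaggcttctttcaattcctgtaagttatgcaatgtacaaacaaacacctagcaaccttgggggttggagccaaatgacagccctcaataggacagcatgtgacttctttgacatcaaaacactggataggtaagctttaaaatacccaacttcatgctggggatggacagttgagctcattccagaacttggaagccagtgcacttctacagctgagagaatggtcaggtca
Axin2, chr11:108920099-108920398: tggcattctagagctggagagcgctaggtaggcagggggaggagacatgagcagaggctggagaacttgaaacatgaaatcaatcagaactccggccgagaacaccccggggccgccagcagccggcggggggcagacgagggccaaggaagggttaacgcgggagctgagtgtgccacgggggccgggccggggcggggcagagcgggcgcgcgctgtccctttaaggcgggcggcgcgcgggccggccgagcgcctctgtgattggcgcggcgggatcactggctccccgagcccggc
The core was present in the Slc1a2 window, beginning 207 bases before the start site on the minus strand, and in neither the Glul, the Axin2 nor the 2 Rnf43 windows. Of all 32851 windows in the table, 3.73% held it. The Slc1a2 window lies inside the gene as the count table delimits it (chr2:102658659-102790784), downstream of that first base. GC content was 64.3% in the Glul window, 70.0% in the Axin2 window and 45.7% in the Slc1a2 window.

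Levels were compared between genes as deposited FPKM, which scale reads by gene length and library size, and tested from counts (edgeR quasi-likelihood, Benjamini-Hochberg adjustment over all genes tested). A gene was called when its adjusted p was under 0.05 and it changed at least 1.2-fold. Averaged over the 24 libraries, Glul stood at 137 FPKM and Slc1a2 at 15.1 FPKM. Tbx3 (3.48 FPKM), Rnf43 (3.22 FPKM), Znrf3 (1.65 FPKM) and Axin2 (1.38 FPKM) were lower, and Rhbg (0.818 FPKM) and Lgr5 (0.329 FPKM) were lowest. Rhbg rested on 3 to 60 counts per library and Lgr5 on 21 to 102, against 2601 to 12948 for Glul.

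**Figure D1:**
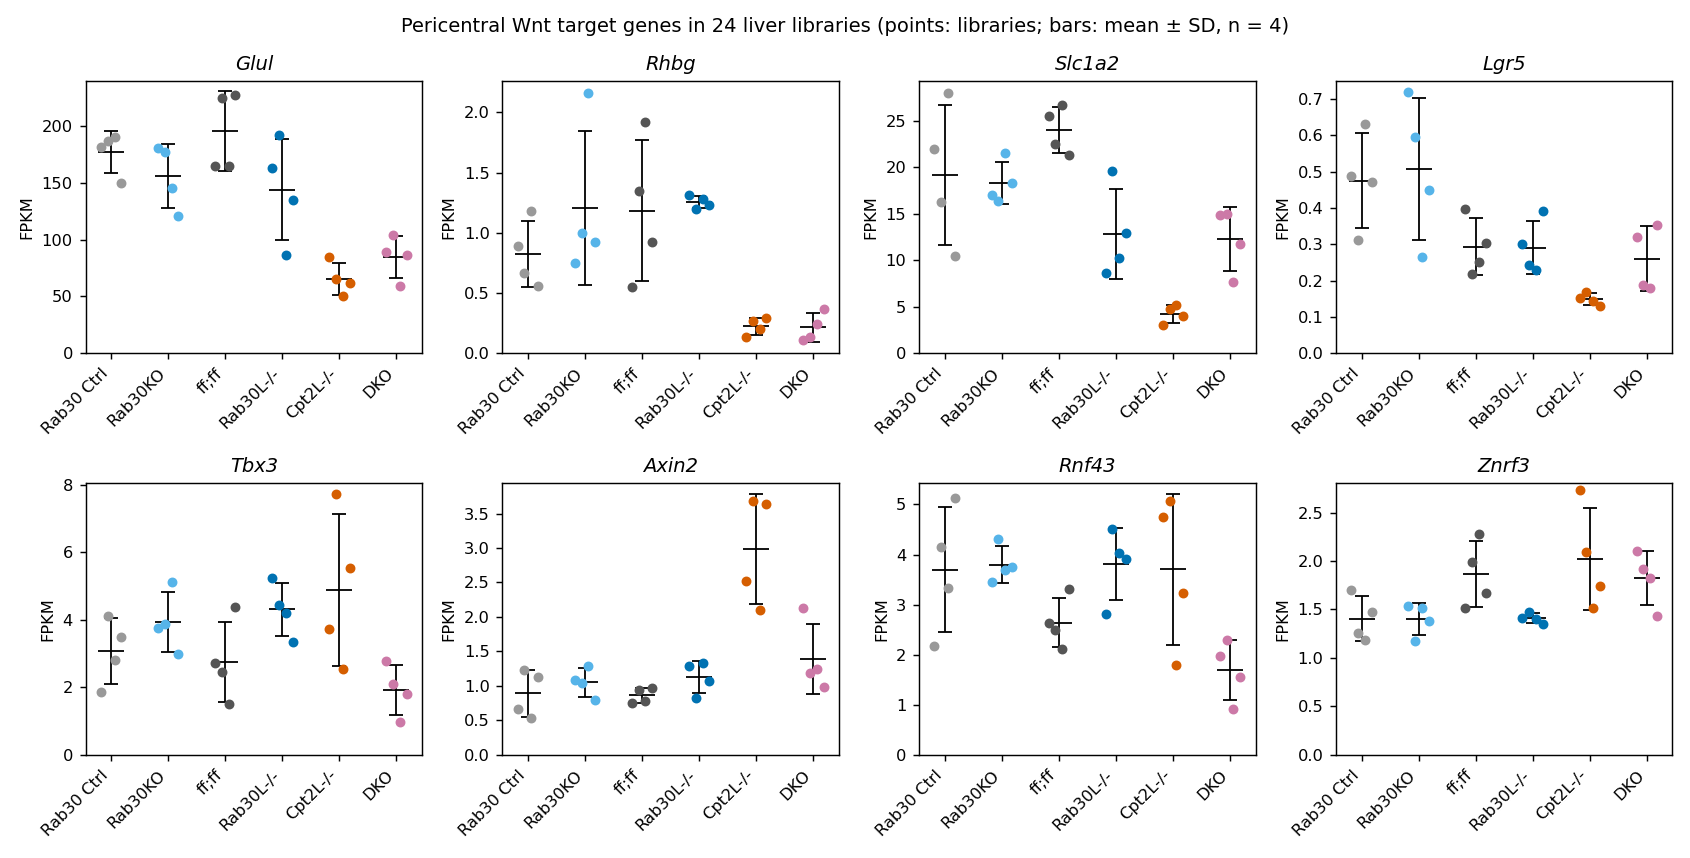
FPKM of the 8 genes in each of the 24 libraries, by group; points are libraries, and the horizontal mark and bars are mean ± SD (n = 4), on linear axes that start at 0. Glul, Rhbg and Slc1a2 sit low in Cpt2L-/-, and Axin2 is highest there, with means of 65.6, 0.223, 4.24 and 2.99 FPKM.

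Livers labelled Cpt2L-/- had less mRNA for glutamine synthesis and ammonium and glutamate transport, and more of the feedback inhibitor Axin2, than ff;ff livers. Of the 8 genes, 5 were called: Slc1a2, Rhbg, Glul and Lgr5 fell and Axin2 rose. Among these, Rhbg passed the filter on low counts through ff;ff, the group where it was high. Of all 13270 genes tested, 23.8% were called, 11.9% higher and 11.9% lower. The median log2 fold change of the 8 was -0.43, against -0.0035 over all genes tested. Hepatocyte markers moved with these values: the 9 markers summed to 51274 to 60382 CPM in Cpt2L-/- and to 103928 to 136138 CPM in ff;ff, with 5 of the 9 called lower, and their part in the result was not tested.

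Glul, glutamine synthetase (ENSMUSG00000026473, GRCm38 chr1:153899944-153909723), makes glutamine from glutamate and ammonia in the last cells before the central vein. It measured 165, 225, 165 and 227 FPKM in the 4 ff;ff livers. In Cpt2L-/- livers it measured 84.5, 65.7, 50.6 and 61.5 FPKM, so every value lay below the lowest ff;ff value. DKO livers gave 89.2, 104, 58.9 and 86.8 FPKM, again below every ff;ff liver and overlapping Cpt2L-/-. Glul fell by 1.58 on the log2 scale (SE 0.19, adjusted p = 8.19e-05 by edgeR), a 2.98-fold difference, and was called in all 8 fits that left out 1 library. In order of mean, Glul ran from ff;ff (195 ± 35.3 FPKM) through Rab30 Ctrl (177 ± 18.7), Rab30KO (156 ± 28.4), Rab30L-/- (144 ± 44.8) and DKO (84.8 ± 18.9) to Cpt2L-/- (65.6 ± 14.1; SD, n = 4). Each neighboring pair in that order overlapped.

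Slc1a2, also called Glt1, is a glutamate transporter that takes glutamate into the pericentral hepatocyte (ENSMUSG00000005089, GRCm38 chr2:102658659-102790784), and the promoter window with the TCF core is its own. It measured 25.5, 22.5, 26.7 and 21.3 FPKM in ff;ff. In Cpt2L-/- it measured 3.004, 4.75, 5.23 and 3.98 FPKM, the lowest 4 values of the series. DKO livers gave 14.8, 15.0, 7.67 and 11.7 FPKM, between those 2 groups and overlapping neither. The fall in Cpt2L-/- was 5.68-fold (log2 fold change -2.51, SE 0.18, adjusted p = 2.01e-06 by edgeR). The order of means was ff;ff (24.0 ± 2.52 FPKM), Rab30 Ctrl (19.2 ± 7.56), Rab30KO (18.3 ± 2.30), Rab30L-/- (12.8 ± 4.82), DKO (12.3 ± 3.43) and Cpt2L-/- (4.24 ± 0.973; SD, n = 4). Among neighbors in that order, DKO and Cpt2L-/- had ranges that did not overlap, and the others overlapped.

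Rhbg is an ammonium transporter of the Rhesus family (ENSMUSG00000104445, GRCm38 chr3:88242874-88254709). It gave 12, 43, 52 and 28 counts in ff;ff (0.550, 1.34, 1.92 and 0.923 FPKM). In Cpt2L-/- it gave 4, 8, 6 and 9 counts (0.134, 0.265, 0.200 and 0.293 FPKM), and in DKO 3, 4, 7 and 15 counts (0.111, 0.136, 0.239 and 0.369 FPKM). All 8 libraries labelled Cpt2L-/- or DKO lay below the other 16 in FPKM, although counts this low leave wide counting error. The fall in Cpt2L-/- was 2.39 on the log2 scale (SE 0.44, adjusted p = 0.00162 by edgeR). For Cpt2L-/- and DKO alike, Rhbg passed the filter on low counts through ff;ff, the group where it was high. The means of the other groups were 1.26 ± 0.0485 FPKM in Rab30L-/-, 1.21 ± 0.642 in Rab30KO, 1.18 ± 0.587 in ff;ff and 0.823 ± 0.275 in Rab30 Ctrl (SD, n = 4), and these 4 groups overlapped.

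Lgr5 is the R-spondin receptor that marks stem cells in gut and pericentral hepatocytes in liver (ENSMUSG00000020140, GRCm38 chr10:115450311-115587780). It measured 0.398, 0.218, 0.251 and 0.305 FPKM in ff;ff and 0.152, 0.169, 0.145 and 0.129 FPKM in Cpt2L-/-. The groups did not overlap, and Lgr5 fell 1.96-fold (log2 fold change -0.97, SE 0.29, adjusted p = 0.0264 by edgeR). The call rested on single libraries: it was lost in 5 of 8 fits, without ff;ff replicate 1 or 4 or Cpt2L-/- replicate 1, 3 or 4, where the adjusted p reached 0.0827, and also with no filter on low counts (0.0549). Lgr5 was highest in the whole-body colony, at 0.507 ± 0.196 FPKM in Rab30KO and 0.476 ± 0.130 in Rab30 Ctrl, against 0.291 ± 0.0734 in Rab30L-/- and 0.260 ± 0.0894 in DKO (SD, n = 4). Of the neighbors in order of mean, only DKO and Cpt2L-/- did not overlap.

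Axin2, a scaffold of the β-catenin destruction complex and a general readout of Wnt signaling (ENSMUSG00000000142, GRCm38 chr11:108920349-108950783), moved the other way. It measured 0.758, 0.934, 0.779 and 0.974 FPKM in ff;ff. In Cpt2L-/- it measured 2.52, 3.68, 2.10 and 3.64 FPKM, and in DKO 2.13, 1.19, 1.24 and 0.987 FPKM. Every Cpt2L-/- and every DKO liver lay above every ff;ff liver, and Cpt2L-/- and DKO overlapped through DKO replicate 1. Axin2 rose 3.45-fold in Cpt2L-/- (log2 fold change 1.79, SE 0.22, adjusted p = 9.28e-05 by edgeR) and was called in all 8 fits that left out 1 library. The remaining means were 1.13 ± 0.228 FPKM in Rab30L-/-, 1.05 ± 0.205 in Rab30KO and 0.890 ± 0.336 in Rab30 Ctrl (SD, n = 4), and neighbors in the order of means overlapped throughout.

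The other 3 genes were not called in Cpt2L-/-. Tbx3, a T-box transcription factor of pericentral hepatocytes (ENSMUSG00000018604, GRCm38 chr5:119670669-119684724), measured 2.71, 2.45, 1.51 and 4.37 FPKM in ff;ff and 3.72, 7.73, 2.54 and 5.55 FPKM in Cpt2L-/-. Its log2 fold change was 0.82 (SE 0.38, adjusted p = 0.154 by edgeR), and the groups overlapped. An antisense gene, Tbx3os1, overlaps Tbx3, and whether the counting used strand is not given, so reads of the pair cannot be told apart. Rnf43 (ENSMUSG00000034177, GRCm38 chr11:87662722-87735539) measured 2.64, 2.50, 2.11 and 3.30 FPKM in ff;ff and 4.74, 5.07, 1.80 and 3.23 FPKM in Cpt2L-/-, with a log2 fold change of 0.49 (SE 0.28, adjusted p = 0.235 by edgeR). Without Cpt2L-/- replicate 3, the low one, it was called at a log2 fold change of 0.71 (adjusted p = 0.0284). Znrf3, the partner ligase of Rnf43 (ENSMUSG00000041961, GRCm38 chr11:5276324-5444847), differed by 0.11 (SE 0.21, adjusted p = 0.743 by edgeR), at 2.02 ± 0.529 FPKM in Cpt2L-/- and 1.87 ± 0.340 FPKM in ff;ff (SD, n = 4). Over all 24 libraries Znrf3 varied least of the 8, by 2.32-fold from lowest to highest, and Rhbg varied most, by 19.5-fold.

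Livers labelled DKO shared with Cpt2L-/- livers the low Glul, Slc1a2 and Rhbg. Compared with ff;ff, 3 of the 8 genes were called and all 3 fell, in a comparison where 16.1% of 13389 genes were called, 7.87% higher and 8.24% lower. The median of the 8 was -0.60 on the log2 scale, against -0.018 over all genes. This comparison and that of Cpt2L-/- share the ff;ff libraries. Rhbg fell by 2.42 (SE 0.49, adjusted p = 0.0058), Glul by 1.22 (SE 0.20, adjusted p = 0.00173) and Slc1a2 by 0.98 (SE 0.20, adjusted p = 0.0062, edgeR in each case), and each of these 3 was called in all 8 fits that left out 1 library. Of them, Rhbg passed the filter on low counts through ff;ff, the group where it was high. Axin2 had a log2 fold change of 0.67 (SE 0.26, adjusted p = 0.106), Rnf43 of -0.66 (SE 0.25, adjusted p = 0.103), Tbx3 of -0.54 (SE 0.35, adjusted p = 0.336), Lgr5 of -0.17 (SE 0.32, adjusted p = 0.772) and Znrf3 of -0.05 (SE 0.18, adjusted p = 0.888), none of them called. With no filter on low counts, Rnf43 was called (adjusted p = 0.0471). Hepatocyte markers summed to 66216 to 81250 CPM in DKO, between the Cpt2L-/- and ff;ff ranges.

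**Figure D2:**
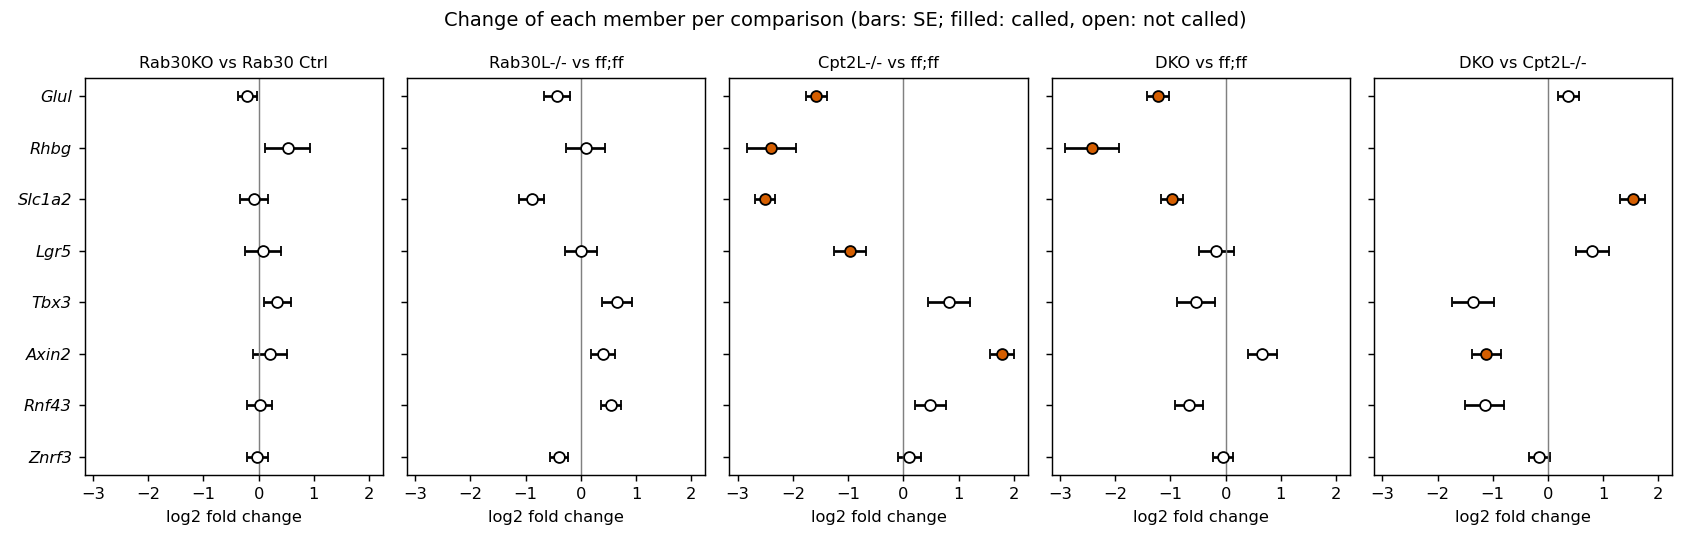
Log2 fold change of each gene in the 5 pairwise comparisons, with SE; filled points were called and open points were not, and Rhbg was too low to be tested between DKO and Cpt2L-/-. Calls lie in the 3 right-hand comparisons, with 5 genes in the third, 3 in the fourth and 2 in the last.

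Slc1a2 was higher and Axin2 lower in livers labelled DKO than in those labelled Cpt2L-/-. These were 2 of the 7 genes tested, where 2.71% of 13306 genes were called, 1.38% higher and 1.33% lower. Slc1a2 rose 2.89-fold (log2 fold change 1.53, SE 0.23, adjusted p = 0.0086 by edgeR) and stayed called in all 8 fits without 1 library, with adjusted p up to 0.0466. Summed hepatocyte markers were also higher, at 66216 to 81250 CPM in DKO and 51274 to 60382 CPM in Cpt2L-/-, ranges that did not overlap. Single markers went both ways, from a log2 fold change of -0.56 for Apoa1 to 0.66 for Tat, with a median of 0.15. None of the 9 was called by edgeR, with 2 at an unadjusted p under 0.05, Alb (log2 fold change 0.55, adjusted p = 0.0754) and Apoa1 (-0.56, adjusted p = 0.0684), and both were called by the DESeq2 Wald test and with no filter on low counts. The part of these markers was not tested. Axin2 fell by 1.12 (SE 0.26, adjusted p = 0.0475 by edgeR), and this call was lost without any one of DKO replicates 2, 3 and 4 or Cpt2L-/- replicates 1 to 4, where the adjusted p reached 0.150. The number of calls over all genes in this comparison itself ran from 57 to 445 in those fits.

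Tbx3 and Rnf43 had lower means in DKO than in Cpt2L-/- and were not called. Tbx3 measured 2.78, 2.11, 0.979 and 1.79 FPKM in DKO, so it overlapped Cpt2L-/- through that group's replicate 3, at a log2 fold change of -1.36 (SE 0.39, adjusted p = 0.0979 by edgeR). Rnf43 measured 1.98, 2.30, 0.909 and 1.56 FPKM in DKO, at a log2 fold change of -1.14 (SE 0.36, adjusted p = 0.114 by edgeR). Both were called by the DESeq2 Wald test, with adjusted p = 0.00363 and 0.0140. Lgr5 measured 0.320, 0.187, 0.181 and 0.353 FPKM in DKO, above every Cpt2L-/- liver, at a log2 fold change of 0.81 (SE 0.29, adjusted p = 0.145 by edgeR). Glul differed by 0.37 (SE 0.19, adjusted p = 0.284) and Znrf3 by -0.15 (SE 0.19, adjusted p = 0.684).

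Between groups that differed in the Rab30 label and carried no Cpt2 deletion by label, edgeR called none of the 8 genes. Between Rab30KO and Rab30 Ctrl the log2 fold changes ran from -0.20 for Glul to 0.53 for Rhbg, each with an adjusted p of 0.9999 by edgeR. None of the 8 had an unadjusted p under 0.05, and 0.0220% of 13656 genes were called, with 302 genes at an unadjusted p under 0.05. Those 3 genes became 0 to 4 without 1 library. The DESeq2 Wald test also called none of the 8. Glul was 156 ± 28.4 FPKM in Rab30KO and 177 ± 18.7 FPKM in Rab30 Ctrl (SD, n = 4).

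Between Rab30L-/- and ff;ff none of the 8 genes was called by edgeR, with 4 at an unadjusted p under 0.05, and 0.479% of 13367 genes were called. Those 64 genes became 23 to 93 without 1 library, with 35 without Rab30L-/- replicate 2, 23 without replicate 4 and 37 without ff;ff replicate 2. Slc1a2 was nearest to a call. It measured 8.64, 19.6, 10.2 and 12.9 FPKM in Rab30L-/-, below every ff;ff liver, with a log2 fold change of -0.89 (SE 0.23, adjusted p = 0.155). Summed hepatocyte markers were also lower, at 89440 to 103846 CPM in Rab30L-/- against 103928 to 136138 CPM in ff;ff. Single markers went both ways, from a log2 fold change of -0.97 for Tat to 0.54 for Fgb, with a median of -0.09. None of the 9 was called by edgeR, with 2 at an unadjusted p under 0.05. Alb (log2 fold change -0.49) was called by the DESeq2 Wald test (adjusted p = 0.0380), and Tat (-0.97) by that test and with no filter on low counts (adjusted p down to 0.0154). The 10 Kupffer cell markers had a median log2 fold change of 0.71, with none called by edgeR or by the DESeq2 Wald test and 4 at an unadjusted p under 0.05, at 278 to 794 CPM in Rab30L-/- and 219 to 402 CPM in ff;ff, and the part of either list was not tested. Slc1a2 was called by the DESeq2 Wald test (adjusted p = 0.0045), with no filter on low counts, and without Rab30L-/- replicate 2 (adjusted p = 0.0300 at a log2 fold change of -1.17). Tbx3 (0.65, SE 0.27), Rnf43 (0.54, SE 0.19) and Znrf3 (-0.40, SE 0.17) were the other 3, in log2 fold change. Tbx3 measured 5.25, 4.45, 4.21 and 3.35 FPKM and Rnf43 2.80, 4.51, 4.03 and 3.92 FPKM in Rab30L-/-, and both overlapped ff;ff. Znrf3 measured 1.41, 1.47, 1.41 and 1.35 FPKM in Rab30L-/-, below the 1.52, 1.99, 2.28 and 1.68 FPKM of ff;ff. Axin2 differed by 0.40, Rhbg by 0.09, Lgr5 by 0.00 and Glul by -0.43 on the log2 scale.

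For 4 of the 8 genes the difference between livers with and without the Rab30 liver deletion, as labelled, differed with the Cpt2 label. This interaction is the log2 fold change of DKO over Cpt2L-/- minus that of Rab30L-/- over ff;ff, and it was fitted over 16 libraries, where 4.06% of 14063 genes were called, 2.20% higher and 1.86% lower. Those 571 genes became 300 to 679 without 1 library, with 349 without Rab30L-/- replicate 2, 362 without replicate 4, 328 without DKO replicate 2, and 365, 339 and 300 without Cpt2L-/- replicates 2, 3 and 4. For Slc1a2 it was 2.43 (SE 0.35, adjusted p = 0.000703 by edgeR), from log2 fold changes of -0.89, not called, and 1.53. Tbx3 (-2.004, SE 0.52, adjusted p = 0.0440), Rnf43 (-1.68, SE 0.42, adjusted p = 0.0330) and Axin2 (-1.52, SE 0.35, adjusted p = 0.0227) had an interaction below 0. In the same fit the hepatocyte marker Alb had an interaction of 1.04 (adjusted p = 0.0215), G6pc of 2.58 (adjusted p = 0.00291) and Nr1i3 of -1.83 (adjusted p = 0.0142), all called by edgeR. Alb was the 1 called of 9 hepatocyte markers, which ran from -0.72 for Apoa1 to 1.64 for Tat, with a median of 0.26. Cpt2 itself had an interaction of -0.99 (SE 0.22, adjusted p = 0.0191 by edgeR), called in all 16 fits without 1 library. None of the 10 Kupffer cell markers was called by edgeR, with a median of -0.94, all below 0, and 5 at an unadjusted p under 0.05. The DESeq2 Wald test called 3 of them, C1qc (adjusted p = 0.0219), Cd5l (0.0224) and C1qa (0.0427). C1qc was also called by edgeR without Rab30L-/- replicate 1 or ff;ff replicate 4, and Cd5l without Rab30L-/- replicate 1. The part of these genes in the interactions was not tested. Slc1a2 kept its call in all 16 fits without 1 library, whereas Axin2 lost it without Cpt2L-/- replicate 4 (adjusted p = 0.0513). Rnf43 lost it in 10 of the 16 fits, without Rab30L-/- replicate 2, 3 or 4, DKO replicate 4, ff;ff replicate 1, 2 or 3 or Cpt2L-/- replicate 1, 2 or 4, with adjusted p up to 0.0659. Tbx3 lost it in 12, without any Rab30L-/- replicate, DKO replicate 2, 3 or 4, ff;ff replicate 1, 2 or 3 or Cpt2L-/- replicate 2 or 4, with adjusted p up to 0.0868. With no filter on low counts, edgeR called neither Tbx3 (adjusted p = 0.110) nor Rnf43 (0.0877). The DKO and ff;ff livers, which are littermates, enter the interaction with one sign and the Cpt2L-/- and Rab30L-/- livers with the other, so a difference between litters cannot be told apart from it.

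**Figure D3:**
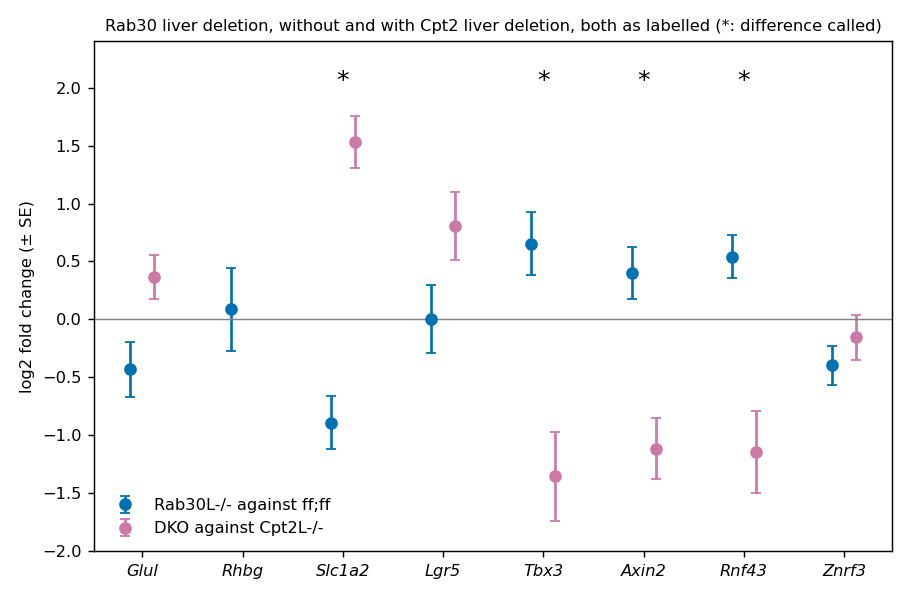
Log2 fold change (± SE) of each gene between livers labelled with and without the liver deletion of Rab30, in livers labelled without (Rab30L-/- against ff;ff) and with (DKO against Cpt2L-/-) the liver deletion of Cpt2; asterisks mark a called interaction. Slc1a2 moves from -0.89 to 1.53, and Tbx3, Axin2 and Rnf43 from above 0 to below it.

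Genes upstream of the 8 were counted by role. Of 25 ligands, R-spondins and secretion factors, 10 passed the filter in Cpt2L-/- against ff;ff and 3 were called, where 23.8% of all genes were called. Wnt4 rose by 1.64 (SE 0.42) on the log2 scale, and Porcn, which acylates Wnt proteins, fell by 0.94 (SE 0.30). The third was Wnt9a, at 0.130 ± 0.0748 CPM in ff;ff and 1.12 ± 0.413 CPM in Cpt2L-/- (SD, n = 4). It had at most 4 counts in a ff;ff library and 24 in a Cpt2L-/- library, so it passed the filter through the group where it was high. Wnt4 also did not reach 10 counts in every library of this comparison, and the fit with that requirement left it out. Porcn fell by 1.35 (SE 0.28) in DKO, the 1 call among 9 tested there, where 16.1% of all genes were called. The endothelial ligands of the central vein were not called in Cpt2L-/-: Wnt2 had a log2 fold change of -0.49 (adjusted p = 0.221), Wnt9b of -0.25 (adjusted p = 0.708) and Rspo3 of 0.63 (adjusted p = 0.0966, edgeR in each case). Endothelial markers summed to 266 to 316 CPM in Cpt2L-/- and 267 to 380 CPM in ff;ff, with 1 of 10 called, Clec4g (-0.65, SE 0.17). Wnt5b was lower in DKO than in Cpt2L-/- (log2 fold change -1.97, SE 0.38, adjusted p = 0.0245 by edgeR), 1 of 10 tested, where 2.71% of all genes were called. That call was lost without DKO replicate 1 or 2 or Cpt2L-/- replicate 2, 3 or 4 (adjusted p up to 0.0885) and in the fit over all 24 libraries (0.247). The Porcn call in Cpt2L-/- was lost without ff;ff replicate 3 or 4 or Cpt2L-/- replicate 1, 3 or 4 (adjusted p up to 0.112).

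Among 11 receptors tested, Lgr4, an R-spondin receptor related to Lgr5, fell in Cpt2L-/- and DKO. It was 13.5 ± 3.14 FPKM in ff;ff, 5.04 ± 0.542 in Cpt2L-/- and 7.37 ± 0.744 in DKO (SD, n = 4). Its log2 fold changes were -1.43 in Cpt2L-/- (SE 0.17, adjusted p = 8.03e-05), -0.89 in DKO (SE 0.17, adjusted p = 0.00391) and 0.54 between DKO and Cpt2L-/- (SE 0.12, adjusted p = 0.0417, edgeR in each case). The last of these calls was lost without DKO replicate 1 or 2 or any Cpt2L-/- replicate (adjusted p up to 0.145) and in the fit over all 24 libraries (0.0897). The Frizzled receptor Fzd6 rose by 0.99 (SE 0.19) in Cpt2L-/- and by 0.93 (SE 0.22) in DKO, Fzd7 rose by 0.67 (SE 0.14) in Cpt2L-/-, and Fzd5 fell by 0.63 (SE 0.20) in DKO. The Fzd5 call was lost without any DKO replicate or ff;ff replicate 2, 3 or 4 (adjusted p up to 0.133) and with no filter on low counts (0.121). In Cpt2L-/- 2 receptors rose and 1 fell, and in DKO 1 rose and 2 fell, so that 3 of 11 were called in each, where 23.8% and 16.1% of all genes were called.

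Of 18 signal transducers tested, 1 was called in Cpt2L-/-, the casein kinase Csnk1e (0.80, SE 0.20), and 1 in DKO, Gsk3b (0.45, SE 0.13), both higher, where 23.8% and 16.1% of all genes were called. The Gsk3b call was lost without DKO replicate 1, 2 or 4 or ff;ff replicate 2, 3 or 4 (adjusted p up to 0.109) and with no filter on low counts (0.0684). Ctnnb1, which encodes β-catenin, stayed between 31.0 and 37.2 FPKM across the 12 libraries of ff;ff, Cpt2L-/- and DKO, with log2 fold changes of 0.11 (SE 0.12) in Cpt2L-/- and 0.08 (SE 0.12) in DKO. Tcf7l2, a TCF factor, had a log2 fold change of -0.37 (SE 0.17, adjusted p = 0.124 by edgeR) in Cpt2L-/-. Of 4 secreted or cytoplasmic inhibitors tested in Cpt2L-/-, Notum, an enzyme that removes the lipid of Wnt proteins, fell from 9.56 ± 1.51 FPKM in ff;ff to 4.52 ± 0.680 (SD, n = 4), by 1.08 on the log2 scale (SE 0.17, adjusted p = 0.000586 by edgeR). In DKO none of the 4 was called by edgeR, with 1 at an unadjusted p under 0.05. That 1 was Notum (log2 fold change -0.57, adjusted p = 0.0560), which was called by the DESeq2 Wald test, in the fit over all 24 libraries and without ff;ff replicate 1 (adjusted p = 0.0364).

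Genes of both zones of the lobule fell in livers labelled Cpt2L-/- or DKO. Of 18 other pericentral genes, 9 fell and 1 rose in Cpt2L-/-, and 8 fell and none rose in DKO, with medians of -0.77 and -0.59. Over all genes 11.9% were called lower in Cpt2L-/- and 8.24% in DKO. The largest falls in Cpt2L-/- were those of Slc13a3 (-1.96, SE 0.33), a carboxylate transporter, Gulo (-1.95, SE 0.19), the last enzyme of vitamin C synthesis, and Rgn (-1.61, SE 0.37), in log2 fold change. In DKO the same list gave Slc13a3 at -2.21, Rgn at -1.85 and Gulo at -1.72. Gulo was 126 ± 5.96 FPKM in ff;ff, 32.6 ± 9.82 in Cpt2L-/- and 38.4 ± 7.93 in DKO (SD, n = 4). The P450 Cyp1a2 fell by 1.31 in Cpt2L-/- and by 1.02 in DKO, while Cyp2e1, another pericentral P450, was not called in either (-0.54, adjusted p = 0.0668, and -0.10, adjusted p = 0.768, by edgeR). Nr1i3, the receptor CAR, was the gene that rose (1.12). Of these 18 genes, 2 were higher in DKO than in Cpt2L-/-, Aldh1a1 (0.88, SE 0.18) and Ahr (0.50, SE 0.12), where 1.38% of all genes were called higher. The Ahr call was lost without any one of the 8 libraries, and that of Aldh1a1 without DKO replicate 1 or 2 or Cpt2L-/- replicate 2, 3 or 4, with adjusted p up to 0.150 and 0.122. Neither was called in the fit over all 24 libraries. With no filter on low counts, Rgn was not called in Cpt2L-/- (adjusted p = 0.0671) or DKO (0.0600), nor Nr1i3 in Cpt2L-/- (0.0505).

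Of 16 periportal genes, 12 fell and 1 rose in Cpt2L-/-, and 13 fell and 1 rose in DKO, with medians of -1.95 and -1.58 on the log2 scale, against 11.9% and 8.24% of all genes called lower. Aldh1b1 (-3.10, SE 0.33), Etnppl (-2.86, SE 0.39) and the serine dehydratase Sds (-2.81, SE 0.33) fell most in Cpt2L-/-. In DKO the largest falls were of Sds (-2.42, SE 0.36), Aldh1b1 (-2.34, SE 0.28) and Hsd17b6 (-2.04, SE 0.49). Between DKO and Cpt2L-/- none of the 16 was called by edgeR, with 5 at an unadjusted p under 0.05. In Rab30L-/- 1 of the 16 was called, G6pc, glucose-6-phosphatase, which fell by 1.28 (SE 0.24, adjusted p = 0.0423 by edgeR), where 0.479% of all genes were called. That call was lost without Rab30L-/- replicate 1, 2 or 4 or ff;ff replicate 1, 2 or 3 (adjusted p up to 0.148), in the fit over all 24 libraries and with at least 10 counts in every library (up to 0.124).

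**Figure D4:**
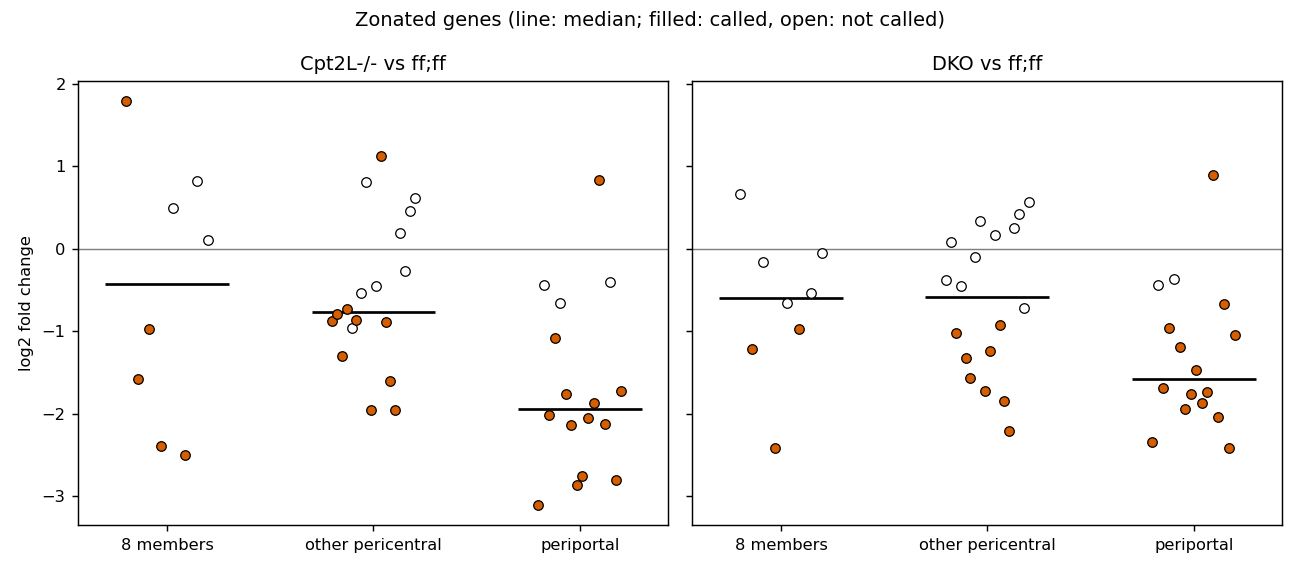
Log2 fold changes of the 8 genes, 18 other pericentral genes and 16 periportal genes in Cpt2L-/- and DKO livers against ff;ff; filled points were called, open points were not, and lines are medians. The medians are -0.43, -0.77 and -1.95 in Cpt2L-/- and -0.60, -0.59 and -1.58 in DKO.

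Markers of other cells moved as follows. Of 10 Kupffer cell markers, 3 fell in Cpt2L-/- and 6 in DKO, where 11.9% and 8.24% of all genes were called lower, and none was called in the fit over all 24 libraries. Without 1 library, the count ran from 0 to 3 in Cpt2L-/- and from 0 to 7 in DKO. Their summed level was 178 to 268 CPM in Cpt2L-/-, 169 to 204 CPM in DKO and 219 to 402 CPM in ff;ff. None of 10 stellate cell markers was called in Cpt2L-/- or DKO by edgeR, with 3 and 1 at an unadjusted p under 0.05. Of the bile duct markers, 1 of 5 tested was called in Cpt2L-/- and 1 of 6 in DKO, where 23.8% and 16.1% of all genes were called. It was Sox9 in both, which fell by 2.26 in Cpt2L-/- and by 1.45 in DKO. The part of these cells in the results on the 8 genes was not tested.

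Over the 24 libraries, which share the 6 groups, the 8 genes did not form one pattern. Glul and Slc1a2 followed each other at a Pearson r of 0.79 in log2 CPM, and at 0.24 once group means were removed. Slc1a2 and Axin2 stood at -0.86, and at -0.40 within groups. Tbx3 and Rnf43 were the closest pair of the 8, at 0.82, and kept 0.71 within groups. The protein-coding gene most like Glul by Pearson r was Ppm1l (0.89, and 0.53 within groups), that most like Rhbg was Gulo (0.89 and 0.40), that most like Slc1a2 was Snx25 (0.88 and 0.45) and that most like Lgr5 was Cfap20 (0.89 and 0.64). For Tbx3 it was Rnf43 (0.82 and 0.71), for Axin2 Fam219a (0.88 and 0.65), for Rnf43 Ddx11 (0.85 and 0.67) and for Znrf3 Clip1 (0.81 and 0.69). Ranked by Spearman rho, the 3 genes most like Glul, Rhbg, Slc1a2 and Axin2 shared 0 with the 3 by Pearson r, those of Tbx3, Rnf43 and Znrf3 shared 1, and those of Lgr5 shared 2.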

How the data were processed

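Liver RNA-seq libraries of 24 mice were prepared by Novogene. Deposited by the authors were gene-level read counts, not normalized, and FPKM values that divide them by gene length and library size. The submitters' processing notes name HISAT2, DESeq2 and GRCm38 (mm10), while the counter, annotation, strand setting and HISAT2 version are not given in the sources used here. Deposited fold change tables were not used. Counts were filtered with filterByExpr, scaled by TMM and tested in edgeR 4.0.16 (R 4.3.3) by robust quasi-likelihood fits on the 8 libraries of each comparison, with adjusted p by Benjamini-Hochberg and SE as the log2 fold change over the root of F. Genes were called at an adjusted p below 0.05 with a change of 1.2-fold or more. Levels are the mean ± SD of the deposited FPKM, which carries another library size than the summed counts (0.851 to 1.14 times them). CPM use TMM library sizes, and likeness used log2 CPM with a prior count of 2. Alternatives were DESeq2 1.42.0, other filters, a fit over all 24 libraries and leaving out each library. Pairs of libraries of a group differed by more than counting noise (chi-square per degree of freedom 13.4 or more). The titles name separate animals and no batch. Named genes were the 8 members, the called genes of each list with the 3 largest changes per comparison, Ctnnb1, Tcf7l2, Wnt2, Wnt9b, Rspo3, Lgr4, Cyp2e1 and Cyp1a2, the most similar genes, and Rab30 and Cpt2. Tbx3os1, Nr1i3 and Apoa1 were added after their values were seen. The members and lists were chosen with earlier results of these data known. Overlapping genes may share reads.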

Additional observations from a re-analysis of the deposited data

Results flagged for a closer look

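For 4 of the 8 genes the change between livers labelled with and without the Rab30 liver deletion differed by the Cpt2 label, in an interaction test over 16 libraries. Of all 14063 genes tested, 4.06% were called. In the 16 fits without 1 library, Tbx3 lost its call in 12, Rnf43 in 10 and Axin2 in 1. The interaction log2 difference was 2.43 for Slc1a2, -2.004 for Tbx3, -1.68 for Rnf43 and -1.52 for Axin2. No library stood apart from the other 3 of its group by Dixon's test at the 95% level in the 48 combinations of gene and group, where chance flags about 1 in 20.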

How the results depend on the processing

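The number of the 8 genes called in Cpt2L-/- against ff;ff was 4 to 5, and in DKO against ff;ff it was 3, in the fits without 1 library. In Rab30L-/- against ff;ff it was 0, and 1 by the DESeq2 Wald test and with no filter on low counts, and ran from 0 to 1 without 1 library. In DKO against Cpt2L-/- it was 2, but 4 by the DESeq2 Wald test, 1 with at least 10 counts in every library, and 1 to 2 without 1 library. In the interaction it was 4, but 2 with no filter on low counts and 1 to 4 without 1 library. The cause was not tested. Changes near 0 turned sign without 1 library, on the log2 scale: between Rab30KO and Rab30 Ctrl, Slc1a2 ran from -0.28 to 0.14, Lgr5 from -0.14 to 0.30, Rnf43 from -0.16 to 0.22 and Znrf3 from -0.11 to 0.0881, and between Rab30L-/- and ff;ff, Rhbg ran from -0.14 to 0.40 and Lgr5 from -0.18 to 0.17. Lgr5 was also -0.0095 with DESeq2 size factors, -0.0093 by the Wald test and -0.013 with no filter there. Znrf3 ran from -0.0738 to 0.22 in Cpt2L-/-, from -0.14 to 0.0538 in DKO against ff;ff and from -0.27 to 0.0221 in DKO against Cpt2L-/-, Lgr5 from -0.36 to 0.0049 in DKO against ff;ff, and the interaction of Rhbg from -0.53 to 0.12. Of the list genes named in the text, calls lost in some of the 8 fits without 1 library were those of Hsd17b6 (6 fits), Porcn (5) and Aldh1a1 (5) in Cpt2L-/-, Fzd5 (7), Gsk3b (6), Etnppl (5), Hsd17b6 (4), Cd5l (4), C1qa (3), C1qc (3) and Fzd6 (1) in DKO against ff;ff, Ahr (8), Lgr4 (6), Wnt5b (5) and Aldh1a1 (5) in DKO against Cpt2L-/-, and G6pc (6) in Rab30L-/-. With no filter on low counts, the calls of Rgn and Hsd17b6 in Cpt2L-/- and DKO against ff;ff, of Nr1i3 in Cpt2L-/- and of Etnppl, Fzd5 and Gsk3b in DKO were lost. Without 1 library, 6 to 11 other pericentral and 10 to 12 periportal genes fell in Cpt2L-/-, and 7 to 8 and 9 to 12 in DKO. Over all genes, calls in Rab30KO against Rab30 Ctrl were 10 by the Wald test, 9 in the fit over 24 libraries, 6 with no filter and 0 with at least 10 counts, in Rab30L-/- against ff;ff 298, 94, 240 and 25, in DKO against Cpt2L-/- 1032, 114, 705 and 269, and in the interaction 1080, 374, 477 and 461. Recomputing FPKM from counts, gene length and library total moved 3 of 48 group means by more than 1 SD. No paired analysis was possible because the labels give no replicate numbers shared between groups. Counts of Rhbg and Lgr5 limit what could be detected for these genes.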
